A study of Homo sapiens with 4 samples.

Results

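The 7 genes described here encode the intermediate filament proteins by which neural cells are usually typed, namely the neurofilament subunits NEFL, NEFM and NEFH, alpha-internexin (INA), peripherin (PRPH), nestin (NES) and vimentin (VIM). They were chosen by name from the table of raw read counts, 7 of its 60612 genes, after its gene identifiers had been matched to symbols. All 7 passed the filter on low counts, which left 17537 genes to be tested. RNA-seq of polyA RNA was performed in IMR-32 cells, an established human neuroblastoma line with MYCN amplification, to ask which transcripts depend on the neurogenic transcription factor NeuroD1. The shControl group (2 libraries) carried a control hairpin and the shNeuroD1 group (2 libraries) a hairpin against NEUROD1, each stably transduced, and both groups received doxycycline at 1 μg/mL for 48 h to switch the hairpin on. The labels give the genotype of the controls as WT and the series text calls them parental, and the labels do not say which hairpin against NEUROD1 was used or whether the libraries of a group came from separate cultures, so that p-values measure only the spread between these libraries, which may be technical.

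Intermediate filaments are assembled from rod-shaped proteins that pair into coiled coils and then bundle into ropes of tensile strength. In mature axons NEFL forms the core with NEFM, NEFH and alpha-internexin, and the long tails of NEFM and NEFH set the spacing between filaments and the calibre of the axon. Peripherin joins these subunits in peripheral and sympathetic neurons, the lineage from which neuroblastoma arises, whereas nestin and vimentin are typical of dividing neural progenitors, and vimentin also of mesenchymal and glial cells.

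The libraries held 14665210 to 16482463 counts. NEUROD1 itself, which checks the labels, fell from 416.7 ± 3.10 to 60.9 ± 3.90 CPM (counts scaled to library size with TMM factors; SD, n = 2 libraries a group), or 14.6% of shControl. The adrenergic marker HAND2 stood at 710.0 to 791 CPM in every library, as in sympathetic neuroblastoma cells.

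The sequence next to the transcript start is shown for INA, PRPH and NES, since they include INA, which was not called, and PRPH, with the second largest rise, and since the deposited models of all 3 had a start at the same base as RefSeq. Each run is the 250 bases before the start in RefSeq on GRCh38.p14, 5′ to 3′ on the strand of the gene, and capitals mark CAGATG or CAGCTG, both of them forms of the E-box that neurogenic bHLH factors are known to bind, and TATAAA, the TATA box. The windows are chr10:103276888-103277137 (plus strand) for INA, chr12:49294897-49295146 (plus strand) for PRPH and chr1:156677408-156677657 (minus strand) for NES.
INA: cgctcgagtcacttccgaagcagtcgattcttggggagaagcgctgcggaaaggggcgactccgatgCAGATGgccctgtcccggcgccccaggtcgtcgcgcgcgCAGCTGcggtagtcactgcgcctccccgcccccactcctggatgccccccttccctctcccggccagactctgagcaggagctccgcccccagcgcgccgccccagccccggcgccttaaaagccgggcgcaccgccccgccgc
PRPH: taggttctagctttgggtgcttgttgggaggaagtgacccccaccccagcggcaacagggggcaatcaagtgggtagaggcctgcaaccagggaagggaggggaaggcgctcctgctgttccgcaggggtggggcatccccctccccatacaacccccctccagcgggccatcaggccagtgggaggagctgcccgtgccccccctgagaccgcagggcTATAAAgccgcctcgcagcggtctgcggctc
NES: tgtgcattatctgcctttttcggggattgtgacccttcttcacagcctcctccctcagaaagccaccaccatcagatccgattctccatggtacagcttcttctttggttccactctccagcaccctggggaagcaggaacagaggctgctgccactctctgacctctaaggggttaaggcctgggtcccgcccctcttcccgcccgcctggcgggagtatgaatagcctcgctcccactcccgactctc
INA held 1 CAGATG, 183 bases before the start, and 1 CAGCTG, 144 bases before it. PRPH held neither, but it had TATAAA 31 bases before the start and 1 match of the looser E-box CANNTG, which contains the other E-box forms, 184 bases before it. NES had no match of the 4 motifs. Among 35116 RefSeq promoter windows of this length, searched on both strands, CAGATG was found in 12.2%, CAGCTG in 14.0%, CANNTG in 61.8% and TATAAA in 10.7%. Of the 7 genes, 4 matched an entry, the fourth being VIM, whose window at chr10:17227991-17228240 (plus strand) held none of the 4 motifs and lay before a start that carried little of its signal. These matches describe the letters in the windows only. NEFL, NEFM and NEFH are named without a sequence.

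After NeuroD1 knockdown 6 of the 7 genes rose and none fell. At an adjusted p under 0.05 (edgeR quasi-likelihood test, two-sided, Benjamini-Hochberg over all genes tested), 26.8% of all genes tested were called higher in shNeuroD1 and 28.2% lower. VIM alone also passed a log2 fold change of 1, a threshold that 8.79% of all genes passed upward and 5.14% downward (with 0 of the 7). When the counts were scaled by library size alone, 6114 of all genes were called higher and 3639 lower, against 4698 and 4939 with TMM, and the median of all genes moved from a log2 fold change of 0.01 to 0.12. The median over the 7 genes was 0.65. RNA came from whole cultures, in which fewer cells of a type and less RNA per cell cannot be told apart.

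**Figure D1:**
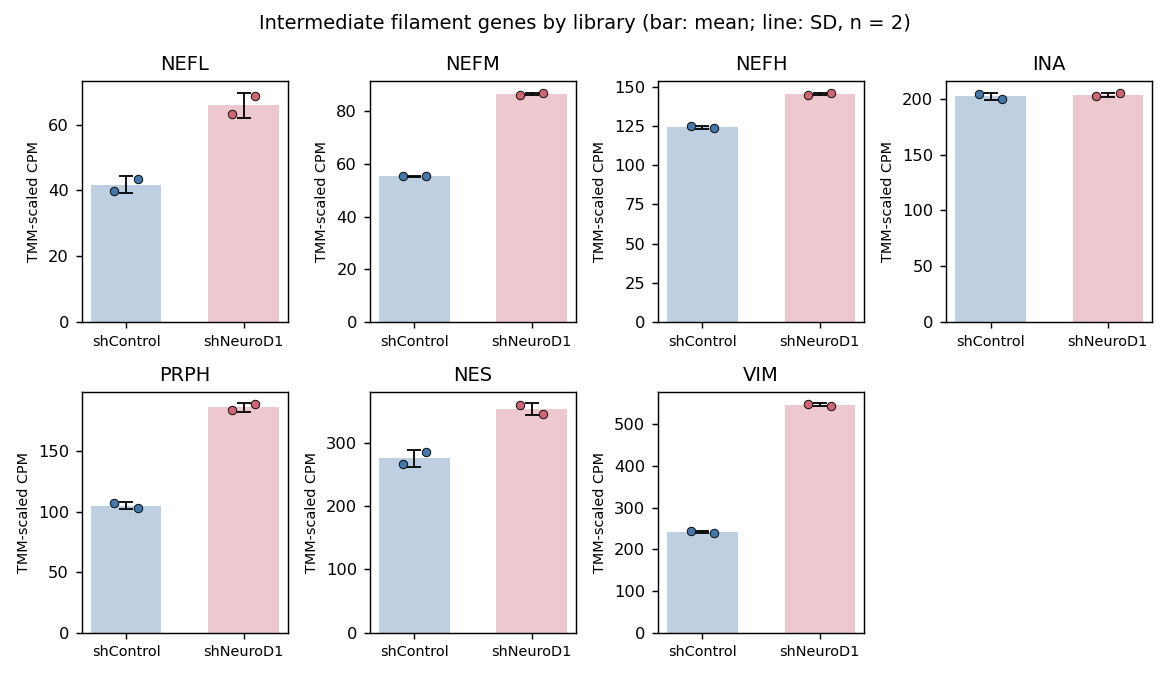
TMM-scaled CPM (y axis, from 0, with its own range for each gene) of the 7 intermediate filament genes in the shControl and shNeuroD1 libraries. Points are libraries, bars the mean and lines the SD (n = 2 a group). Both shNeuroD1 libraries lie above both shControl libraries for every gene but INA, whose 4 libraries lie between 200.0 and 205 CPM.

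NEFL, the light subunit on which neurofilament assembly depends (ENSG00000277586, chr8:24950955-24957110, minus strand, GRCh38), was covered by 588 and 691 counts in shControl, against 960 and 1045 in shNeuroD1. Scaled to depth, these were 39.9 and 43.5 CPM against 63.1 and 68.6 CPM, so that the groups did not overlap. NEFL rose by a log2 fold change of 0.66 (SE 0.0675, 95% interval 0.52 to 0.80, edgeR adjusted p = 6.2e-10), to 158% of shControl. Its deposited transcript model had a single start, to which 8.26 and 8.91 FPKM (fragments assigned per kilobase of transcript, scaled to depth) were assigned in shControl, against 14.1 and 14.5 FPKM in shNeuroD1.

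NEFM, the medium subunit (ENSG00000104722, chr8:24913012-24919098, plus strand), lies beside NEFL on chromosome 8, with 31856 bases and 0 annotated genes between them. Its counts were 816 and 878 with the control hairpin, against 1313 and 1325 with the other, or 55.4 and 55.3 CPM against 86.3 and 87.0 CPM. The 2 libraries of a group nearly coincided and the groups were far apart, with a log2 fold change of 0.65 (SE 0.0576, 95% interval 0.53 to 0.76, edgeR adjusted p = 2.6e-11). NEFM thus reached 157% of shControl, and the ratio of NEFL to NEFM per length of exon lay between 0.729 and 0.798 in all 4 libraries, with overlapping groups. An annotated antisense gene, AF106564.1, shares exon sequence with NEFM and was listed with 132 and 148 counts in shControl, against 219 and 236 in shNeuroD1 (log2 fold change 0.71, SE 0.130, edgeR adjusted p = 2.4e-05). The strand setting of the counting is not given in the sources used here. It is therefore not known how reads from the shared sequence were assigned, or whether either count holds reads from the other strand.

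NEFH, the heavy subunit, whose long phosphorylated tail accumulates as axons mature (ENSG00000100285, chr22:29480230-29491390, plus strand), drew 1839 and 1962 counts in shControl, against 2202 and 2223 in shNeuroD1. Its level went from 125 and 124 CPM to 145 and 146 CPM, again without overlap. The rise was the smallest of the 6 that passed, with a log2 fold change of 0.23 (SE 0.0476, 95% interval 0.13 to 0.32, edgeR adjusted p = 0.00014). NEFH reached 117% of shControl, and its 95% interval lay wholly below those of NEFL and NEFM. The difference between the subunits was not itself tested. A fit on FPKM in place of counts (limma on log2(FPKM + 1)) did not call NEFH (adjusted p = 0.205), NEFL (adjusted p = 0.0563) or NES (adjusted p = 0.0884).

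INA, alpha-internexin, which is made early in neuronal differentiation and copolymerizes with the neurofilament triplet (ENSG00000148798, chr10:103277163-103290351, plus strand), drew 3016 and 3176 counts in shControl, against 3079 and 3120 in shNeuroD1. The values of 205 and 200.0 CPM against 202 and 205 CPM overlapped. The log2 fold change of 0.01 (SE 0.0441) did not pass the test (edgeR adjusted p = 0.873), and its 95% interval ran from -0.08 to 0.10. Its single start gave 50.3 and 47.8 FPKM in shControl, against 50.1 and 52.3 FPKM in shNeuroD1, which overlapped likewise. Scaling by library size alone gave INA a log2 fold change of 0.12 (edgeR adjusted p = 0.0189), while the median of all genes also stood at 0.12 under that scaling.

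PRPH, peripherin (ENSG00000135406, chr12:49293252-49298686, plus strand), drew 1581 and 1632 counts in shControl, against 2795 and 2872 in shNeuroD1. These were 107 and 103 CPM against 184 and 189 CPM, and the gap between the groups was many times the difference within either. PRPH rose to 177% of shControl, by a log2 fold change of 0.83 (SE 0.0481, 95% interval 0.73 to 0.92, edgeR adjusted p = 8.6e-16), the second largest of the 7. The antisense gene AC125611.4, which shares exon sequence with PRPH, was listed with 141 and 151 counts in shControl, against 313 in each shNeuroD1 library (log2 fold change 1.11, SE 0.117, edgeR adjusted p = 1.2e-09). How reads from their shared sequence were assigned is not known, for the reason given for NEFM.

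NES, nestin, the large intermediate filament protein of neural stem and progenitor cells (ENSG00000132688, chr1:156668763-156677397, minus strand), drew 3918 and 4522 counts in shControl, against 5471 and 5269 in shNeuroD1. The shControl libraries stood at 266 and 285 CPM and the shNeuroD1 libraries at 359.6 and 346 CPM, a wider spread within groups than for PRPH but with no overlap. NES rose by a log2 fold change of 0.36 (SE 0.0439, 95% interval 0.27 to 0.45, edgeR adjusted p = 2.5e-08), to 128% of shControl. Its main start gave 32.1 and 32.4 FPKM in shControl, against 46.0 and 42.6 FPKM in shNeuroD1. No annotated gene overlaps INA or NES, and of the antisense genes that share exon sequence with NEFL and NEFH, AC107373.2 drew 0 to 4 counts in each library and AC000035.1 none.

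VIM, vimentin (ENSG00000026025, chr10:17228259-17237593, plus strand), drew 3586 and 3796 counts in shControl, against 8359 and 8283 in shNeuroD1. Its level went from 243 and 239 CPM to 549 and 544 CPM, the widest separation among the 7 genes. VIM rose by 1.18 on the log2 scale (SE 0.0414, 95% interval 1.10 to 1.27, edgeR adjusted p = 1.7e-21), or 227% of shControl, and its interval lay above that of PRPH. The antisense gene VIM-AS1 had 8 counts in each shControl library and 16 and 25 in the shNeuroD1 libraries, and AL133415.1 had 0, 0, 0 and 5; both are small beside the counts of VIM. PRPH and VIM were called in all 13 other fits that were run.

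**Figure D2:**
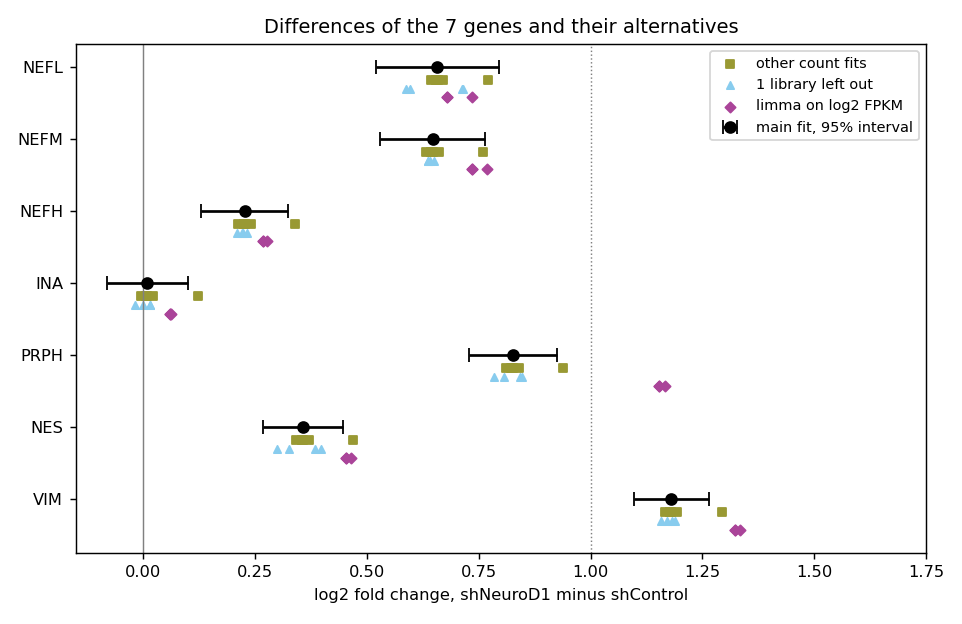
Log2 fold change of shNeuroD1 minus shControl (x axis) for the 7 genes (y axis) in the main edgeR fit, with its 95% interval, and in 13 other fits: 6 on counts, 4 without 1 library and 3 with limma on FPKM. The solid line marks 0 and the dotted line 1. VIM lies above 1 in each fit, PRPH only in the FPKM fits, and INA lies around 0.

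Levels of different genes were compared per length, as TMM-scaled CPM divided by the kilobases of all exons of the gene. On that scale INA was the highest of the 7 genes in shControl, with 62.6 ± 1.01 CPM per kb (SD, n = 2). NES at 49.5 ± 2.41 and VIM at 46.8 ± 0.582 CPM per kb came next, and differed by about as much as the 2 libraries of NES. NEFH (32.8 ± 0.227), PRPH (24.1 ± 0.729), NEFM (12.6 ± 0.0114) and NEFL (9.63 ± 0.592 CPM per kb) followed, each apart from its neighbours.

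In shNeuroD1 the order changed at the top. VIM led with 106.5 and 105.5 CPM per kb, followed by NES (63.5 ± 1.73) and INA (63.0 ± 0.547 CPM per kb), whose libraries overlapped. PRPH at 42.8 ± 0.793 now exceeded NEFH at 38.4 ± 0.232 CPM per kb, and NEFM (19.8 ± 0.114) and NEFL (15.2 ± 0.902 CPM per kb) remained lowest. The 7 genes summed to 237.8 and 238 CPM per kb in shControl and to 349 CPM per kb in each shNeuroD1 library, a ratio of means of 1.46. The neurofilament subunits with INA, itself nearly unchanged, accounted for 118 and 117 CPM per kb in shControl and 135 and 138 in shNeuroD1 (ratio 1.16). VIM, PRPH and NES together accounted for 119.6 and 121 against 213 and 211 (ratio 1.76). By the FPKM of the transcript starts, the ratio was 1.84 for the 7 genes, 1.24 for the neurofilament subunits with INA and 2.19 for VIM, PRPH and NES.

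As a share of the 7 genes per length, VIM went from 19.6% ± 0.281 to 30.4% ± 0.226 (SD, n = 2) and INA from 26.3% ± 0.473 to 18.1% ± 0.152. The share of INA was thus lower in shNeuroD1 although its level was not, since the other 6 genes were higher. NEFH took 13.8% and then 11.0%, and NES 20.8% and then 18.2%, while PRPH took 10.1% and then 12.3%. NEFL (4.05% and 4.36%) and NEFM (5.30% and 5.67%) kept small shares. With 2 libraries against 2 the smallest p that an exact permutation test allows is 0.33, so these shares were not tested.

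The FPKM of the transcript starts gave another order of the levels. PRPH took 21.8% of the 7 genes in shControl and 26.7% in shNeuroD1 on that scale (10.1% and 12.3% by CPM per kb) and stood above NEFH, INA and NES in every library. VIM was highest on that scale in both groups, with 27.8% and 38.3%. The all-exon length of PRPH, 4353 bases, includes upstream exons that the main transcript lacks. The direction of each change in share was the same on both scales except for NEFL and NEFM, which were slightly lower in shNeuroD1 by FPKM.

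**Figure D3:**
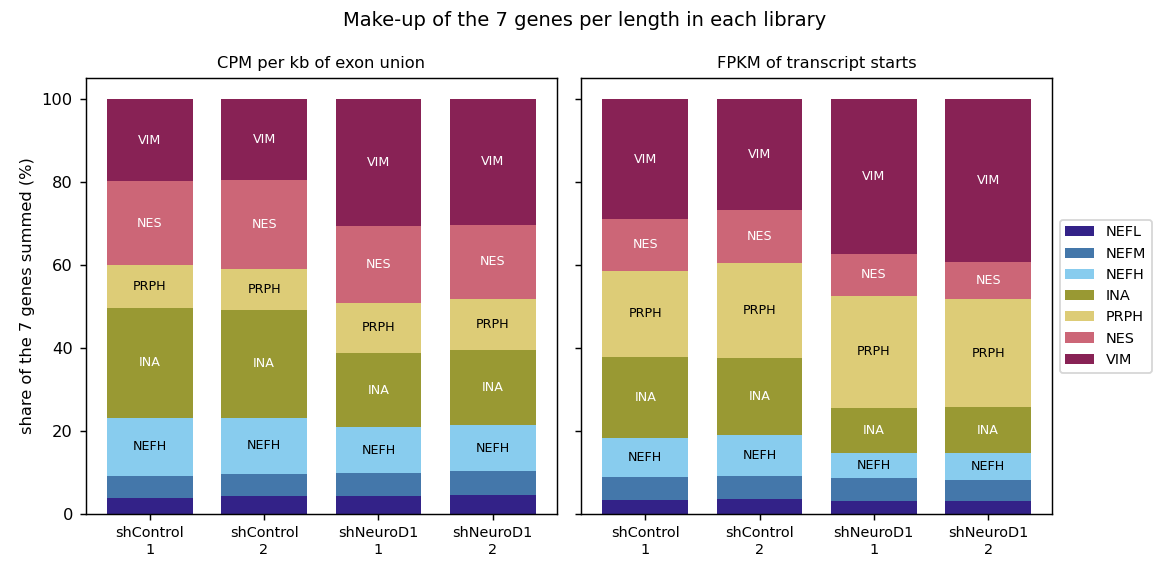
Share of each of the 7 genes in their sum (y axis, percent) in the 4 libraries (x axis), from CPM per kb of exon (left) and from the FPKM of transcript starts (right). The VIM part is larger in both shNeuroD1 libraries on either scale and the INA part smaller, while PRPH takes a larger part by FPKM than by CPM per kb in each library.

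The deposited tables of transcript starts, ends and splicing events listed 2 events each for NEFL, NEFM, NEFH and INA, 4 for NES, 10 for PRPH and 23 for VIM. For PRPH, the start used by RefSeq carried 56.1 FPKM in shControl 2 and 119 and 121 FPKM in the shNeuroD1 libraries, or 94.4% to 96.6% of all PRPH starts. In shControl 1 it carried 17.5 FPKM, and 35.8 FPKM (67.1%) were assigned to a start 1895 bases upstream that held 0.0236, 0.683 and 0.0360 FPKM in the other libraries. Summed over starts, PRPH had 53.4 and 58.4 FPKM in shControl and 126 and 125 FPKM in shNeuroD1, so the split in shControl 1 concerned the starts and not the total. The main end of PRPH gave 50.4 and 57.4 FPKM against 121 and 123 FPKM.

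The main start of VIM, 1037 bases downstream of the RefSeq start, carried 69.0 and 67.8 FPKM in shControl and 154 and 178 FPKM in shNeuroD1. The RefSeq start was listed with 5.09 FPKM in shControl 1 and with 8.31 FPKM and a second event of 0.0694 FPKM in shNeuroD1 2, and was not listed in the other 2 libraries. A start 3947 bases downstream of the main one held 19.9 FPKM in shNeuroD1 1 and 0.172 to 0.537 FPKM in the other libraries. The single end of VIM gave 62.3 and 55.7 FPKM in shControl and 168 and 180 FPKM in shNeuroD1, which did not overlap.

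Transcripts from the main VIM start were listed under 2 events at the first intron, a major and a minor class. Both events have the same coordinates, so the listing does not show how the classes differ there. The major class had 57.2 and 55.7 FPKM in shControl and 148 and 172 FPKM in shNeuroD1. The minor class had 11.8 and 12.0 FPKM in shControl and 5.77 and 6.46 FPKM in shNeuroD1, so that its share of the main start was 17.1% and 17.7% in shControl against 3.76% and 3.63% in shNeuroD1. The 2 classes thus differed between the groups in opposite directions, as estimated from transcript models. At the next intron, the main event held 55.7 FPKM in shControl 2 and 148 FPKM in shNeuroD1 1, the values of the major class alone. The end of VIM in shControl 2, at 55.7 FPKM, likewise left out the minor class. The minor class is therefore not shown to be a splice form of full-length VIM. The difference between the groups was not tested.

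**Figure D4:**
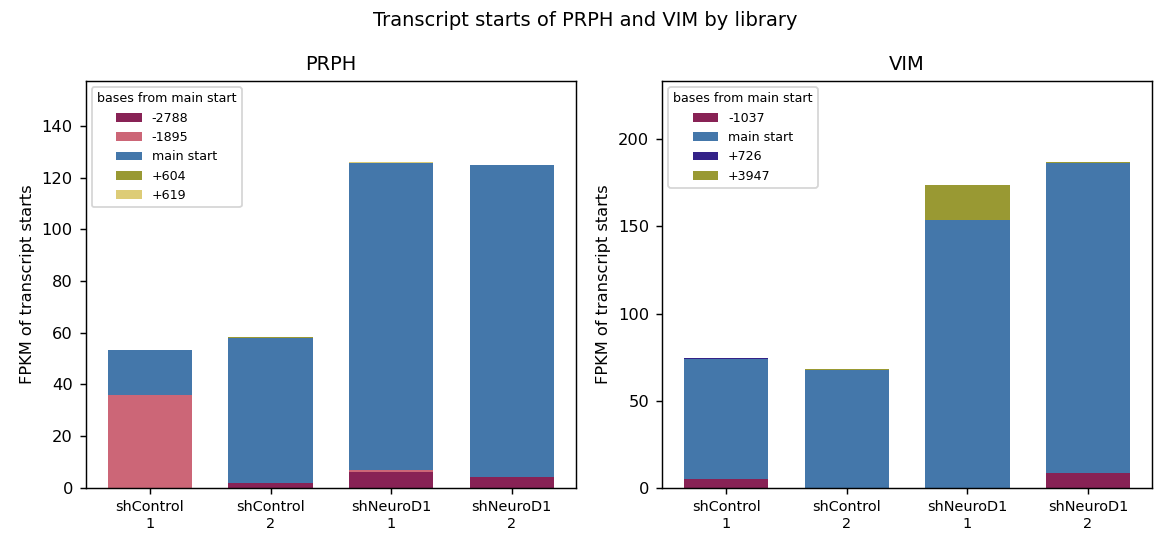
FPKM of the transcript starts (y axis, stacked from 0) of PRPH (left) and VIM (right) in each library (x axis), coloured by distance in bases from the main start. The summed bars of shNeuroD1 exceed those of shControl for both genes, and 67.1% of the PRPH bar in shControl 1 belongs to the start 1895 bases upstream.

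Other intermediate filament genes did not move as a block. Of 11 such genes outside the keratins, 7 were tested, 3 rose and 2 fell, with a median log2 fold change of 0.31. That median was 0.17 without shControl replicate 1 (2 called higher) and -0.037 without a filter on low counts (2 called higher), and without shControl replicate 2 only 1 of the genes was called higher. LMNB1, the B-type lamin of the nuclear envelope, fell from 235 and 230.2 CPM to 98.9 and 93.9 CPM (log2 fold change -1.27, SE 0.0478, edgeR adjusted p = 1e-20), and LMNA, the A-type lamin, rose from 29.5 and 26.9 to 46.7 and 47.0 CPM (log2 fold change 0.73). BFSP1, a lens filament protein, stood at about 1 CPM and passed narrowly (log2 fold change 0.92, edgeR adjusted p = 0.04996). LMNB2 fell by 0.45 and IFFO1 rose by 0.43 on the log2 scale, both named after their values were seen. GFAP, the glial filament protein, had 1 to 3 counts in each library and DES, of muscle, at most 1. Of 12 keratins, which mark epithelial cells, 5 had no count in any library and KRT10 alone was tested. KRT10 fell from 8.68 and 6.99 CPM to 2.63 and 2.95 CPM (log2 fold change -1.48, edgeR adjusted p = 2e-07).

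Among proteins that link or chaperone intermediate filaments, 8 of 11 were tested, 5 rose and 2 fell, with a median of 0.25. EVPL, the desmosomal linker envoplakin, drew 11 and 5 counts in shControl, against 39 and 35 in shNeuroD1 (log2 fold change 2.20). HSPB1, a small heat shock protein, rose by 0.45 and BAG3, a co-chaperone, fell by 0.43 on the log2 scale. Of 10 genes for motors that carry neurofilaments or other axonal cargo, subunits and cofactors included, 6 rose and 1 fell, with a median of 0.22. KIF5A, the neuronal kinesin heavy chain best known for neurofilament transport, rose from 57.3 and 61.6 CPM to 115 CPM in each shNeuroD1 library (log2 fold change 0.95), whereas its ubiquitous relative KIF5B fell by 0.49. DYNC1I1, a dynein intermediate chain, drew 4 and 12 counts in shControl, against 40 and 42 in shNeuroD1 (log2 fold change 2.35).

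Of 18 kinases, phosphatases and cofactors that act on intermediate filament proteins, 6 rose and 9 fell, with a median of -0.10 (0.0096 with library size alone). The mitotic kinases CDK1, from 209.5 and 189 CPM to 97.1 and 96.8 CPM (log2 fold change -1.04), and AURKB (-0.87) were among those that fell. CDK5, the neuronal kinase that phosphorylates neurofilament tails, went the other way, from 15.1 and 14.2 to 22.1 and 24.7 CPM (log2 fold change 0.68), and is named after its values were seen. Of 8 genes for the turnover of filament proteins 4 rose and 1 fell, with a median of 0.28. TRIM2, a ubiquitin ligase for NEFL, rose by 0.56 and CAPN1, a calpain, by 0.44 on the log2 scale. Of 4 proteins known to bind NEFL RNA, 2 fell, among them TARDBP (log2 fold change -0.62), while ARHGEF28 rose from 5.90 and 6.42 CPM to 85.0 and 85.5 CPM (log2 fold change 3.79), the median being -0.29.

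Outside the intermediate filaments, 9 of 13 genes of the axonal cytoskeleton rose and 3 fell, with a median of 0.31. GAP43, a growth cone protein, rose from 19.6 and 19.3 to 61.3 and 58.1 CPM (log2 fold change 1.62). ANK2, an ankyrin that anchors membrane proteins to spectrin, rose by 1.50 and MAPT, the microtubule protein tau, by 1.41 on the log2 scale. These 3 changes exceeded that of VIM. Of the 87 genes of these lists, the cell type markers apart, 69 were tested. Of those tested, 34 rose and 21 fell, and 6 and 3 of them respectively passed a log2 fold change of 1. Among all genes tested, 26.8% were called higher and 28.2% lower, with 8.79% and 5.14% beyond a log2 fold change of 1 in size.

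**Figure D5:**
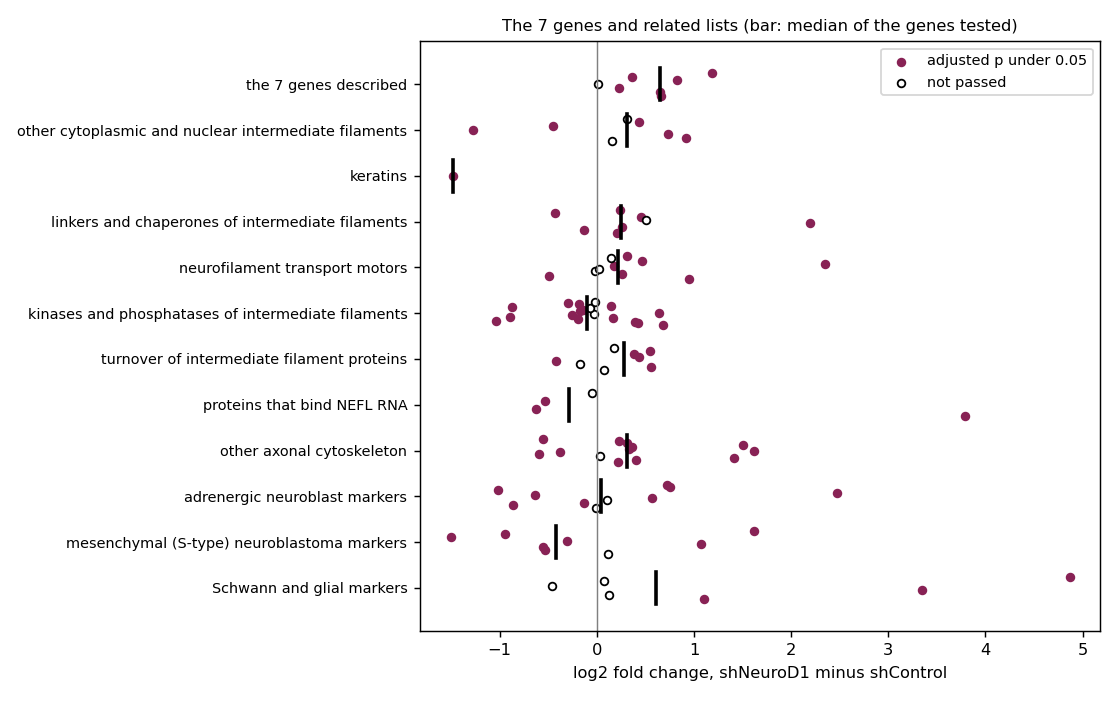
Log2 fold change of shNeuroD1 minus shControl (x axis) for the tested genes of each list (y axis), filled where the edgeR adjusted p was under 0.05, with a bar at the median of each list. The 7 genes lie at or above 0, and of the other lists with more than 1 tested gene each has members on both sides of 0. The point farthest right is FABP7, a fitted value that rests on 1 count in each shControl library.

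Vimentin, nestin and the neurofilaments also mark cell types, so the marker genes of those cells are given beside them. The counts called in each marker list stand beside 26.8% of all genes tested called higher and 28.2% called lower. Of 14 mesenchymal neuroblastoma markers, 8 were tested, 2 rose and 5 fell. They summed to 257 and 265 CPM in shControl and 190.0 and 189 CPM in shNeuroD1, with TWIST1 holding the most (143 and 135 CPM against 96.4 and 91.9). The defining factor PRRX1 had no count in any library, and YAP1 fell (log2 fold change -1.50), while CD44 (1.07) and LUM (1.62, from 14 and 10 to 37 counts in each library) rose. VIM was therefore higher in the libraries in which the summed mesenchymal markers were lower.

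Of 8 Schwann and glial markers, 6 were tested, 3 rose and none fell, at low levels that summed to 6.17 CPM in each shControl library and to 11.1 and 13.5 CPM in shNeuroD1. FABP7 had 1 count in each shControl library and 27 and 38 in shNeuroD1, and S100B had 23 and 3 and then 25 and 31. SOX10, the defining factor, stood at 0.543 and 1.07 CPM in shControl and 0.986 and 0.788 CPM in shNeuroD1, which overlapped, and CDH19 had no count. Of 10 adrenergic markers 4 rose and 4 fell, where 26.8% of all genes tested were called higher and 28.2% lower. DBH, which makes noradrenaline, fell by 1.01 on the log2 scale, while TH, the first enzyme of catecholamine synthesis, rose from 10 and 20 to 88 and 79 counts (log2 fold change 2.48), and the list summed to 2235 and 2219 CPM against 2011 and 1979 CPM. The part of any shift in cell type in the values of the 7 genes was not tested.

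The genes whose pattern over the 4 libraries was most like that of each member were sought by the root mean square difference (RMS) in centred log2 CPM, among the 10559 genes that averaged 10 CPM or more. For VIM these were MIAT (RMS 0.00896) and ADGRB1 (0.0133), and 23 genes lay within 0.05 of it. For PRPH they were HAND2-AS1 (0.00931) and HIPK3 (0.0114), with 76 genes within 0.05. PLPP5 (0.00699) and DHRS4-AS1 (0.0111) were nearest to NEFM, and ENSG00000271533, which has no symbol, (0.00974) and LINC01798 (0.0150) to NEFL. CYP2R1 (0.00573) and FAHD2A (0.00593) were nearest to NES, RNF146 (0.00440) and PRKACB (0.00647) to NEFH, and RNF145 (0.00625) and STRAP (0.00715) to INA, which had 1039 genes within 0.05. With 4 libraries in 2 groups, a small RMS mostly says that the group difference was of the same size.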

How the data were processed

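PolyA RNA of IMR-32 cells was sequenced in 4 libraries, grouped by their titles into shControl and shNeuroD1 (2 each). The authors deposited raw read counts per gene, made with HTSeq 0.6.1, and the submitters' processing notes list cutadapt 1.9.1, HISAT2 2.0.1, DESeq2 and hg38. The strand setting is not given in the sources used here. The authors also deposited tables of transcript starts, ends and splicing events with their FPKM in each library, which list only events above 0. Rows naming no gene held 0% of the counts, and 60401 of 60612 identifiers had a symbol. Gene positions and exon lengths were from GENCODE 29 (GRCh38).

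Counts were tested with edgeR 4.0.16 (R 4.3.3; filterByExpr with a minimum count of 10, TMM, quasi-likelihood F test, two-sided), and p-values were adjusted by Benjamini-Hochberg over 17537 genes. The common biological coefficient of variation, the spread between libraries of a group that edgeR estimates beyond counting noise, was 0.0319. That spread was not itself tested and may be technical. The alternatives were DESeq2 size factors, library size alone, DESeq2 1.42.0, no filter, a minimum mean of 1 CPM, the replicate number as a block, leaving out each library, and limma 3.58.1 on log2 FPKM (pseudocounts 1 and 0.1; mean of at least 1 FPKM or no filter). Depth was 14665210 to 16482463 counts.

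The 7 genes and all lists were chosen with earlier results of these data known. Named are the 7 genes, NEUROD1, of each list the 3 genes with the largest change at an adjusted p under 0.05 and a mean of at least 1 CPM plus all beyond a log2 fold change of 1, markers beside a result, antisense genes overlapping the 7, and 2 genes of like pattern for each. Some genes of the lists are counted in them but not reported here by name.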

Additional observations from a re-analysis of the deposited data

How the results depend on the processing

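Over 91 values of the 7 genes in 13 other fits, 78 kept their direction and their side of the threshold, 10 no longer passed, 1 newly passed and 2 changed sign. The last 3 all concerned INA, whose log2 fold change was 0.12 (adjusted p = 0.0189) with library size alone, -0.0049 without a filter and -0.0171 without shControl replicate 2. The 10 that no longer passed were all FPKM fits with limma, for NEFL (adjusted p 0.0563 to 0.0662), NEFH (0.195 to 0.207), NES (0.0872 to 0.0921) and, without a filter, NEFM (0.0547). In the limma fits on log2(FPKM + 1), log2(FPKM + 0.1) and log2(FPKM + 1) without a filter, 3, 3 and 2 of the 7 genes were called higher, and 2 passed a log2 fold change of 1 in each, VIM and PRPH. The cause was not tested. Those fits called 246, 206 and 142 of all genes higher and 278, 257 and 171 lower, with 186, 174 and 122 above a log2 fold change of 1 and 201, 206 and 144 under -1, among 10084, 10084 and 13215 genes. Of the list genes each of them called 3 higher and 1 lower, all beyond 1 in size.

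Leaving out 1 library gave 2828 to 3860 genes called higher, with 2855 without shControl replicate 1 and 2828 without shControl replicate 2, and the lone library is then assumed to vary like the other group. It kept 6 of the 7 genes higher each time, with log2 fold changes of 0.59 to 0.71 for NEFL, 0.64 to 0.65 for NEFM, 0.21 to 0.23 for NEFH, -0.0171 to 0.0161 for INA, 0.79 to 0.85 for PRPH, 0.30 to 0.40 for NES and 1.16 to 1.19 for VIM. With the replicate number as a block, 6 of the 7 genes were called higher and 0 lower, and 4748 of all genes higher and 5000 lower. The deviations of libraries of the same number had a correlation of 0.0158 over the genes tested. A correlation over all these genes, those with low counts included, cannot exclude a shared preparation, so no pairing was shown or excluded.

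Shares of the 7 genes per length from FPKM, in shControl and shNeuroD1, were 3.35% and 3.05% for NEFL, 5.65% and 5.27% for NEFM, 9.63% and 6.37% for NEFH, 19.1% and 10.9% for INA, 21.8% and 26.7% for PRPH, 12.6% and 9.48% for NES and 27.8% and 38.3% for VIM. Of 141 list medians, 98 moved by less than 0.1 and 5 changed sign. The other intermediate filaments ranged from 0.17 to 0.41 with 1 library left out, and went to -0.037 without a filter and to -0.017 in the unfiltered FPKM fit, the kinases and phosphatases to 0.0096 with library size alone, and the adrenergic markers, which ranged from -0.096 to 0.17 with 1 library left out, to -0.053 without shControl replicate 2 and -0.096 without shNeuroD1 replicate 1. With 2 libraries a group the spread of a gene rests largely on that of genes of like level.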
